A study of Mus musculus with 11 samples.

Results

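The genes described here are 27 genes of GABA signalling, taken as a fixed list of symbols from the 31053 genes in the matrices, and all 27 were found. They comprise the 14 GABA-A receptor subunits Gabra2, Gabra3, Gabra4, Gabra5, Gabra6, Gabrb1, Gabrb2, Gabrg1, Gabrg3, Gabrd, Gabre, Gabrq, Gabrr1 and Gabrr2. The list further holds the GABA-B receptor subunits Gabbr1 and Gabbr2, the synthesis enzymes Gad1 and Gad2, the transporters Slc32a1, Slc6a11 and Slc6a13, and the breakdown enzymes Abat and Aldh5a1. Gphn and Nlgn2 of the inhibitory postsynapse and the chloride transporters Slc12a5 and Slc12a2 complete it. The rule names symbols alone and applies no measured value, although the list was drawn up with earlier results of these data known.

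Single nuclei from frozen cortex of 11 mice, which the labels give as female and the study's methods as male, sequenced as 1 droplet library per mouse, were compared in 4 genotypes. Non-transgenic mice were Ikbkb+/+ and carried no tau transgene (n = 4, 9.8 to 10.85 months old). P301S mice were Ikbkb+/+;P301S+ and carried the PS19 transgene for human P301S mutant tau (n = 3, 9.15 to 10.75 months). Knockout P301S mice were Ikbkb-/-;P301S+, which lack IKKβ in cells with an inducible Cre recombinase at Cx3cr1 (n = 2, 8.39 and 9.15 months), and active IKKβ P301S mice were IkbkbCA;P301S+, in which the same Cre switches on a constitutively active IKKβ (n = 2, 9.8 and 10.85 months). The Ikbkb+/+ mice carried the floxed Ikbkb or the floxed active allele without Cre, and the study's methods state that these littermates received tamoxifen as well. Cre mice have 1 Cx3cr1 allele replaced by the recombinase, and Cx3cr1 marks microglia and related macrophages rather than neurons. Both Ikbkb+/+ groups held mice of the floxed Ikbkb line and of the active IKKβ line, whereas knockout mice came only from the former and active IKKβ mice only from the latter.

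GABA is the main inhibitory transmitter of the cortex. Interneurons make it from glutamate with the decarboxylases encoded by Gad1 and Gad2, load it into vesicles with the Slc32a1 transporter, and release it onto GABA-A receptors, which are chloride channels assembled from subunits that set their kinetics and place, and onto GABA-B receptors, which act through G proteins. Gephyrin (Gphn) and neuroligin-2 (Nlgn2) anchor receptors at the synapse, transporters clear GABA from the space around it, Abat and Aldh5a1 break it down, and Slc12a5 and Slc12a2 move chloride out of and into the cell and so set the direction of the response.

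The libraries held 72007219 to 93205362 UMIs (molecular tags, each standing for 1 captured RNA molecule), and 103065 nuclei were used after filters. Of all barcodes, 1599 occurred in more than 1 library, at 15 to 45 per pair of libraries. Nuclei were clustered with the 27 genes left out of the variable genes and named from markers that hold none of them, and each class name below stands for nuclei like that type. Excitatory neurons numbered 36522 nuclei, interneurons of the Pvalb, Sst, Vip and Lamp5 subclasses 7049, striatal projection neurons 9660, astrocytes 6829, oligodendrocytes 18292, oligodendrocyte precursors 2993 and microglia 4387. A further 7291 nuclei in 6 clusters carried interneuron markers without a subclass, and they were kept apart as a class of their own after the clusters had been seen. That class made up 1.89 to 9.30% of nuclei in non-transgenic, 5.97 to 8.91% in P301S, 5.63 to 7.93% in knockout P301S and 2.27 to 13.4% in active IKKβ P301S mice. Its clusters were not shared evenly between libraries, and its levels varied widely between mice. Endothelial, mural and fibroblast nuclei were few (491, 583 and 990). Clusters of 3970, 2143, 1344, 270 and 1 nuclei stayed unnamed and were in no class. Excitatory clusters of 2915, 2718, 197 and 188 nuclei had no subclass and were not in the comparisons of subclasses. Ikbkb in microglia lay at 111 and 115 CPM in the knockout mice, below all other mice (124 to 163 CPM), in counts over the whole gene and not its deleted part.

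Levels are given as CPM, the UMIs of a gene scaled to the total UMIs summed over the nuclei of a class in a mouse, and errors are SDs over 11 mice unless stated. The first question was where each gene is expressed. GABA synthesis genes were highest in interneurons, but most of the list was not. Highest levels fell to astrocytes for Gabrb1, Gabrg1, Gabbr1, Gphn and Slc6a11, to striatal projection neurons for Gabra4, Gabrd and Abat, to oligodendrocytes for Gabrr2 and to fibroblasts for Slc6a13. In an exact sign-flip permutation test over mice (two-sided, log2 of CPM + 1, Benjamini-Hochberg over all genes), 16 of the 27 genes were higher in their highest class than in the next. Of all 18575 genes tested 37.6% passed, and 13 of the 16 passed in every setting tried. The pair of classes compared was picked by the same values for every gene, so the share over all genes is the measure to read the count against. TMM factors over all sums, the alternative scaling, moved every gene of a class alike on the log2 scale, by 0.29 in excitatory neurons, 0.30 in striatal projection neurons, 0.12 in interneurons, -0.03 in astrocytes, -0.34 in microglia and -0.50 in mural nuclei.

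**Figure D1:**
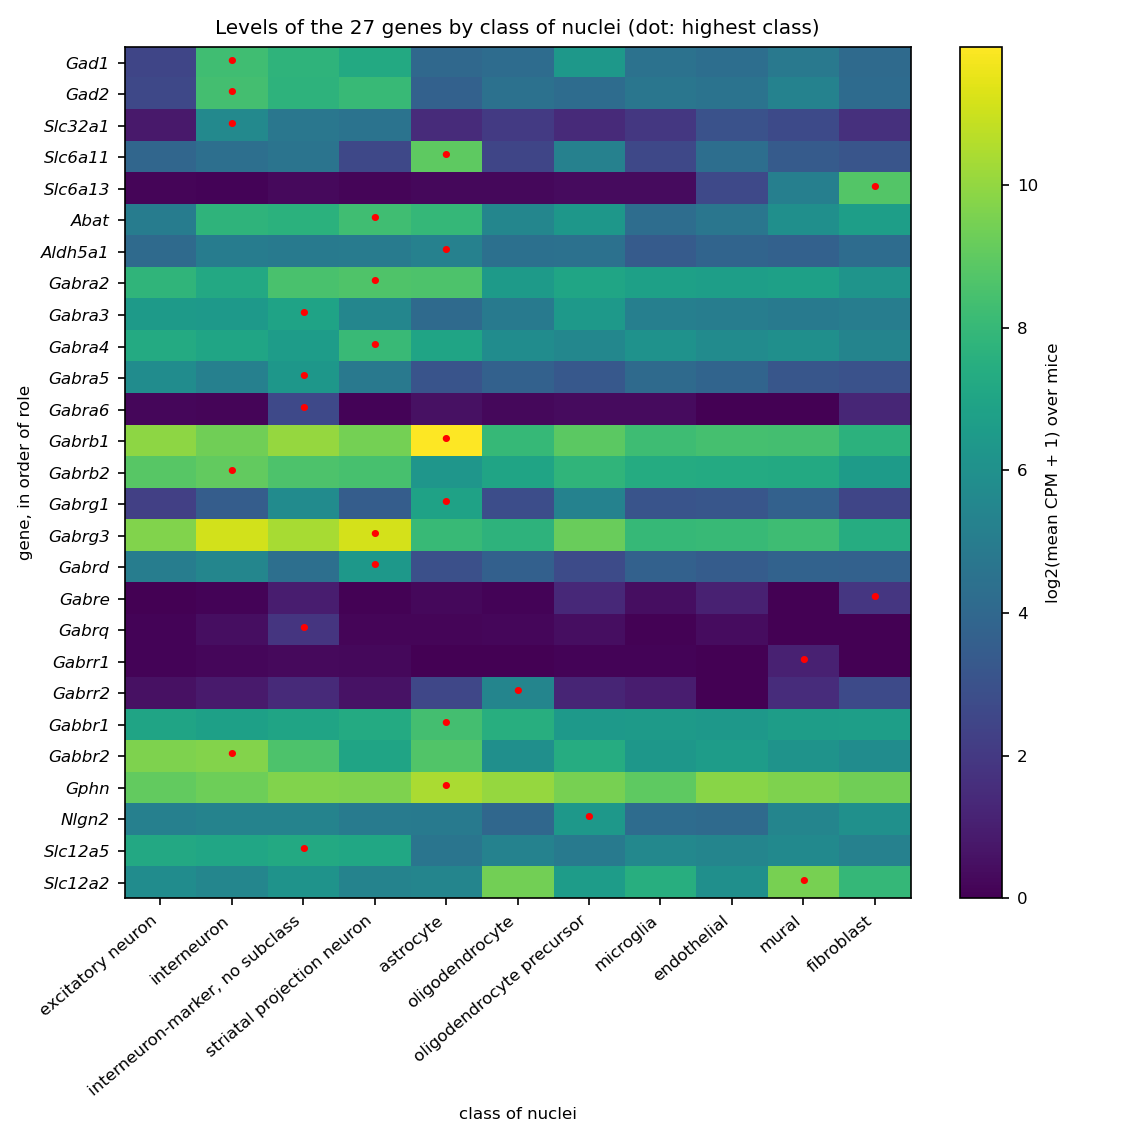
Mean level of the 27 genes over mice in 11 classes of nuclei, as log2(mean CPM + 1) by colour, with genes in order of role and a red dot at the class with the highest mean. The dots spread over neurons, astrocytes, oligodendrocytes and the cells of vessels and meninges, and Gabrb1 in astrocytes is the brightest cell at 3915 CPM.

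Gad1 encodes GAD67, which makes most of the GABA of the cell. In interneurons its lowest, median and highest levels were 269, 310.1 and 329 CPM, against 3.56, 4.49 and 6.89 CPM in excitatory neurons, and the mice of the classes did not overlap. Its mean was 306 ± 17.7 CPM in interneurons and 217 ± 106 CPM in the interneuron-marker nuclei without a subclass, a log2 difference of 0.67 that passed the test (permutation adjusted p = 0.0424) but lost its call without any 1 of 9 of the 11 mice. Gad2 encodes GAD65, the form tied to vesicles. Its levels in interneurons were 282, 325 and 399 CPM, and the mean of 332 ± 33.2 CPM lay 0.36 on the log2 scale above striatal projection neurons at 259 ± 30.2 CPM (permutation adjusted p = 0.0105). With TMM factors over all sums this difference was 0.17 and was not called (permutation adjusted p = 0.0694). Slc32a1, the vesicular transporter, was at 31.3, 48.9 and 68.2 CPM in interneurons, with a mean of 48.3 ± 11.7 CPM against 25.9 ± 6.80 CPM in the class without a subclass (log2 difference 0.88, permutation adjusted p = 0.00504) and 0.778 ± 0.157 CPM in excitatory neurons. Per kb of gene span, a rough scaling between genes where unspliced RNA is counted, Slc32a1 led the 27 genes in interneurons at 9.70 CPM per kb, before Gad1 at 6.26 and Gad2 at 4.63. Exons fill 56.1% of the Slc32a1 span, 15.6% of that of Gad1 and 8.20% of that of Gad2, which the scaling does not account for.

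These 3 genes share the plus strand of chromosome 2 but are far apart. In the GENCODE annotation of GRCm38, Gad2 (ENSMUSG00000026787) spans 22622205 to 22693874, Gad1 (ENSMUSG00000070880) 70553072 to 70602014 and Slc32a1 (ENSMUSG00000037771) 158610767 to 158615748, all protein-coding, and the RefSeq start of Gad1 lies inside its GENCODE span. Their RefSeq promoter windows (GRCm38.p6, 250 bases before to 50 after the start, plus strand) are printed because they are the start sites of the genes that define a GABA neuron. The windows are chr2:70561879-70562178 for Gad1, chr2:22622077-22622376 for Gad2 and chr2:158610508-158610807 for Slc32a1, and capitals mark the E-box letters CANNTG, which read the same on both strands.
Gad1: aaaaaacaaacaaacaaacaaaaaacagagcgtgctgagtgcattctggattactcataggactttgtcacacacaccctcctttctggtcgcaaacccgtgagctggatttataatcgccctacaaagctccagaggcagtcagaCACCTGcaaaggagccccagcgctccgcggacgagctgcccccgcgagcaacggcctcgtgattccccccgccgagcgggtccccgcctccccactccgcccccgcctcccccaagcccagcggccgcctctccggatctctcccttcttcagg
Gad2: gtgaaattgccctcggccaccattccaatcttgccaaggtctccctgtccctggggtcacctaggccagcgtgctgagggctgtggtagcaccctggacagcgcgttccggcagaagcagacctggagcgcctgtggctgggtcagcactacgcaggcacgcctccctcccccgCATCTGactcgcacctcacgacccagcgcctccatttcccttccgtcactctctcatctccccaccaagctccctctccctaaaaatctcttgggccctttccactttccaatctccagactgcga
Slc32a1: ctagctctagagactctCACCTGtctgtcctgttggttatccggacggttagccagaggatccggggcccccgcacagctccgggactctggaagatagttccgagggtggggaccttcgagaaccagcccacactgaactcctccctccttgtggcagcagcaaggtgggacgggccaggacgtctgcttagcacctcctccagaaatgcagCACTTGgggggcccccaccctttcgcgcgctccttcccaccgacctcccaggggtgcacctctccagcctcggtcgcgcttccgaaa
CANNTG occurs 1 time in the Gad1, 1 time in the Gad2 and 2 times in the Slc32a1 window, and 72.3% of all 32851 promoter windows hold it. Of the other letters searched on both strands, TATAAA (13.6% of windows) and CCGCCC (35.7%) each occur 1 time in Gad1 and in neither of the others, and TAATTA (5.29%) and TGACGTCA (1.79%) occur in none of the 3. The matches are a description of the letters and not of binding.

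Outside neurons, Gad1 and Gad2 parted in oligodendrocyte precursors. Gad1 stood there at 71.7, 78.4 and 97.4 CPM (mean 80.1 ± 8.33 CPM) and Gad2 at 7.99, 16.1 and 30.6 CPM (mean 17.4 ± 6.29 CPM), so that every mouse had more Gad1 than any mouse had Gad2. The ratio of Gad1 to Gad2 UMIs was 4.55 in these nuclei, against 0.923 in interneurons, 0.930 in excitatory neurons, 0.850 in oligodendrocytes and 0.828 in microglia. Per mouse the log2 difference between the genes' CPM ran from 1.46 to 3.08 in oligodendrocyte precursors and from -0.27 to 0.09 in interneurons. This comparison was chosen after the values had been seen and was not tested. A Gad1 UMI was found in 28.0% of oligodendrocyte precursors (median 4652.5 UMIs per nucleus), 79.9% of interneurons (median 8275) and 4.19% of microglia (median 2027), which should lack it. In excitatory neurons the share was 4.83% at a median of 11197 UMIs, and the Gad1 level was 4.60 CPM there and 21.3 CPM in microglia. Gad2 was in 6.98% of oligodendrocyte precursors and 4.83% of microglia, and Slc32a1 in 0.768% and 0.615%. The summed interneuron markers (8 genes, none at 0) were 7682 to 9177 CPM in oligodendrocyte precursors across mice, against a mean of 15949.5 CPM in interneurons, and their part in the Gad1 level was not tested.

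The transporters that take GABA back up split between cell types. Slc6a11, which encodes the glial transporter GAT3, was at 381, 480.1 and 730.2 CPM in astrocytes and at 28.8, 33.7 and 50.4 CPM in oligodendrocyte precursors, the next class, without overlap (means 504 ± 118 CPM and 36.8 ± 6.96 CPM, log2 difference 3.73, permutation adjusted p = 0.00504). Astrocytes were not uniform, since the 5866 nuclei of 1 cluster held 405 CPM over all mice and the 751 nuclei of another 1382 CPM, and a mouse gave 9 to 287 nuclei to the second. Slc6a13 encodes GAT2, known from the meninges. Fibroblasts carried it at 184, 415 and 796 CPM and mural nuclei at 8.70, 36.2 and 52.3 CPM, again without overlap (log2 difference 3.60, permutation adjusted p = 0.00504). Of the 2 fibroblast clusters, the one of 697 nuclei held 1340 of its UMIs (621 CPM) and the one of 293 nuclei held 1. In the neuronal and glial classes Slc6a13 averaged at most 0.292 CPM.

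Abat, the transaminase that starts the breakdown of GABA, was highest in striatal projection neurons at 256, 317 and 347 CPM, above astrocytes at 216, 242 and 277 CPM with some overlap between mice (log2 difference 0.30, permutation adjusted p = 0.00504). Interneurons followed at 213 CPM and excitatory neurons were far lower at 31.7 ± 3.24 CPM. Aldh5a1, which removes the product of Abat, had means of 37.0 CPM in astrocytes and 31.8 CPM in interneurons, a log2 difference of 0.21 close to the threshold (permutation adjusted p = 0.0537). Abat thus differed by class more widely than Aldh5a1, whose class means ran from 9.65 CPM in microglia upward.

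**Figure D2:**
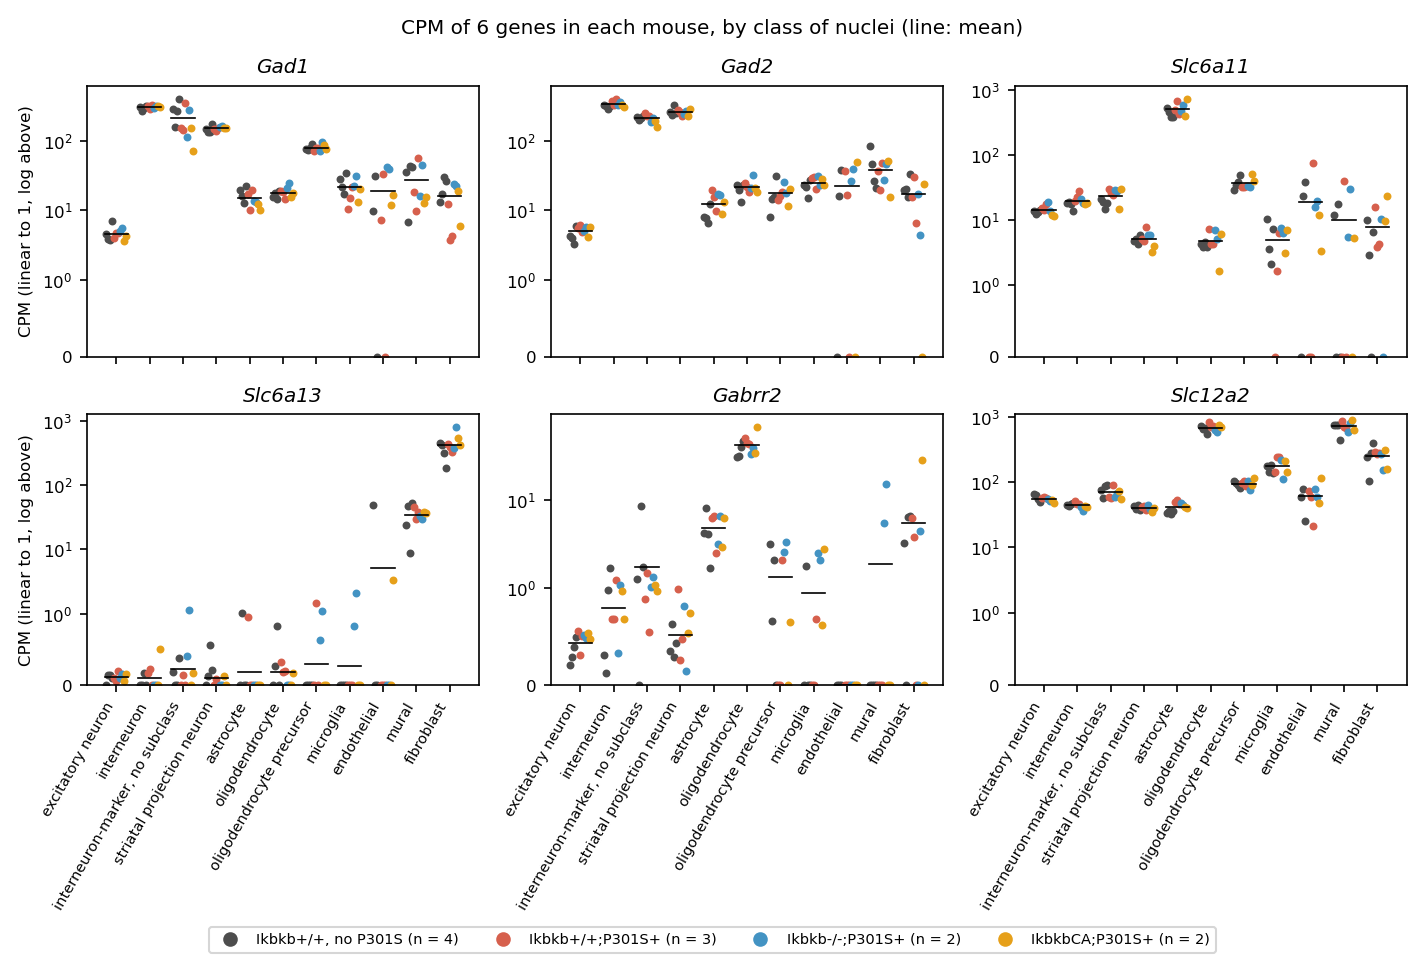
CPM of 6 genes in each mouse (points, coloured by genotype) by class of nuclei, on an axis that is linear to 1 CPM and logarithmic above, with the mean as a line. Gad1 and Gad2 part only in oligodendrocyte precursors among glia, Slc6a11 peaks in astrocytes, Slc6a13 in fibroblasts, Gabrr2 in oligodendrocytes, and Slc12a2 in oligodendrocytes and mural nuclei. Non-transgenic mice lie below all other mice for Slc12a2 in astrocytes and below the P301S mice for Gad2 in interneurons.

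Among the GABA-A subunits, astrocytes stood out for Gabrb1 and Gabrg1. Gabrb1, a beta subunit, was at 3551, 3993 and 4283 CPM in astrocytes and at 819, 972 and 1037 CPM in excitatory neurons, and the class next in order, interneuron-marker nuclei without a subclass, averaged 1059.8 ± 217 CPM (log2 difference 1.91, permutation adjusted p = 0.00504). Gabrg1, a gamma subunit known from glia and parts of the subcortex, was at 88.6, 111 and 156 CPM in astrocytes, against 52.8 CPM in the class without a subclass and 37.9 CPM in oligodendrocyte precursors (log2 difference to the former 1.18, permutation adjusted p = 0.00504). Excitatory neurons had 3.81 ± 1.21 CPM of Gabrg1, the lowest mean of all classes. Gabra2, an alpha subunit of synaptic receptors, averaged 396 ± 67.1 CPM in striatal projection neurons and 388 ± 97.9 CPM in astrocytes, which did not differ beyond the spread (log2 difference 0.05, permutation adjusted p = 0.590), while with TMM factors the former were higher by 0.39 (permutation adjusted p = 0.00427).

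Striatal projection neurons, a subcortical type present in these cortical libraries, led for Gabrd and Gabra4. Gabrd, the delta subunit of receptors outside the synapse, was at 71.4, 80.1 and 94.4 CPM there and at 32.1, 42.3 and 55.4 CPM in interneurons, with no overlap (log2 difference 0.90, permutation adjusted p = 0.00504). Gabra4, its usual alpha partner in the forebrain, was at 217, 274 and 340.3 CPM against 122, 154 and 195 CPM in excitatory neurons (log2 difference 0.79, permutation adjusted p = 0.00504). Gabrg3, a gamma subunit with a gene span of 671 kb, averaged 2306 ± 262 CPM in striatal projection neurons and 2202 ± 149 CPM in interneurons, which did not differ beyond the spread (permutation adjusted p = 0.426), although with TMM factors the former were higher by 0.24 (permutation adjusted p = 0.00617). Per kb of span that level in interneurons was 3.28 CPM, above the 2.54 of Gabrb2. Gabrb2, the beta subunit common at cortical synapses, averaged 531 ± 44.4 CPM in interneurons and 462 ± 42.6 CPM in excitatory neurons (log2 difference 0.20, permutation adjusted p = 0.00504). That small difference shrank to 0.03 with TMM factors and was then not called.

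Gabra3, Gabra5 and Gabrq had their highest means in the interneuron-marker nuclei without a subclass. For Gabra3 the levels there were 93.8, 128 and 146 CPM and in excitatory neurons 76.0, 90.9 and 99.7 CPM (log2 difference 0.42, permutation adjusted p = 0.00504). Gabra5, an alpha subunit of extrasynaptic receptors, was at 41.1, 63.3 and 155 CPM in the same class and 47.9, 53.8 and 62.1 CPM in excitatory neurons, and the wide range over mice left the difference uncalled (permutation adjusted p = 0.119). A single cluster of 1221 nuclei, seen in 5 mice with at least 20 nuclei, carried Gabra5 at 295 CPM and Gad1 at 769.8 CPM. Gabrq, the theta subunit, was scarce, with a mean of 2.61 ± 1.36 CPM from 176 UMIs against 0.374 CPM in interneurons (log2 difference 1.33, permutation adjusted p = 0.00504).

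The remaining subunits were rare apart from Gabrr2 in oligodendrocytes. Gabrr2, a rho subunit, was at 31.4, 40.5 and 68.2 CPM in oligodendrocytes and at 1.67, 4.23 and 8.18 CPM in astrocytes, and its log2 difference from fibroblasts, the next class by mean, was 3.55 (permutation adjusted p = 0.00504). A Gabrr2 UMI was found in 8.95% of oligodendrocytes (median 2483 UMIs per nucleus) and in 0.251% of microglia (median 2027), and the 3 oligodendrocyte clusters held 63.3, 19.8 and 52.1 CPM. Gabrr1, its neighbour 36.7 kb away on chromosome 4 (33132521 to 33163588, after Gabrr2 at 33062999 to 33095865), had 1 UMI in all oligodendrocytes and averaged at most 0.232 CPM in any neuronal class. Gabra6, the alpha subunit of cerebellar granule cells, was near 0 except in 1 cluster of 296 interneuron-marker nuclei, which held 106 of the 110 UMIs of that class (83.0 CPM). Gabre, the epsilon subunit, had at most 66 UMIs in a class.

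Several subunit genes are neighbours in the genome, with different highest classes. On chromosome 5 Gabrg1, Gabra2, Gabra4 and Gabrb1 follow each other (70751047 to 72149037), and of these Gabrb1 and Gabrg1 were highest in astrocytes and Gabra4 in striatal projection neurons, although Gabra4 and Gabrb1 overlap by 0.196 kb on opposite strands and reads there could be shared if strand was not used in counting. Gabrg3 and Gabra5 on chromosome 7 lie 20.5 kb apart, and Gabrb2 and Gabra6 on chromosome 11 are separated by 98.7 kb.

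The GABA-B subunits, which work as a pair, had different highest classes. Gabbr1, which binds GABA, was at 267, 325 and 429 CPM in astrocytes and 159, 185 and 197 CPM in oligodendrocytes (log2 difference 0.87, permutation adjusted p = 0.00504), and led the 27 genes in astrocytes per kb of span at 11.4 CPM. Gabbr2, which carries the receptor to the surface and couples it to G proteins, was at 712, 799.99 and 1026 CPM in interneurons and 650.5, 793 and 972 CPM in excitatory neurons, with overlap (log2 difference 0.06, permutation adjusted p = 0.121), and with TMM factors the difference turned to -0.11 and passed (permutation adjusted p = 0.00617). Oligodendrocytes were the second class for Gabbr1 but had only 61.2 ± 15.02 CPM of Gabbr2.

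Of the postsynaptic scaffold, Gphn was broad, from 504 ± 36.3 CPM in microglia to 1358 ± 85.1 CPM in astrocytes, the latter above oligodendrocytes at 1043 ± 35.0 CPM (log2 difference 0.38, permutation adjusted p = 0.00504). Gephyrin also serves molybdenum cofactor synthesis in all cells. Nlgn2, the neuroligin of inhibitory synapses, had its highest mean in oligodendrocyte precursors at 56.9, 80.8 and 106 CPM, against 34.1, 36.9 and 52.7 CPM in interneurons, without overlap. Its difference from fibroblasts, the next class by mean at 61.7 CPM, did not pass (permutation adjusted p = 0.0876) but did with TMM factors (log2 difference 0.90, permutation adjusted p = 0.00617).

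The chloride transporters had different highest classes. Slc12a5, the neuronal exporter KCC2, averaged 150.4 ± 18.4 CPM in interneuron-marker nuclei without a subclass, 146 ± 15.3 CPM in excitatory neurons, 135 ± 11.8 CPM in striatal projection neurons and 131 ± 13.1 CPM in interneurons, and the difference of the first 2 did not pass (log2 difference 0.04, permutation adjusted p = 0.601). With TMM factors it turned to -0.22 and passed (permutation adjusted p = 0.00427). Slc12a2, the importer NKCC1, was highest in mural nuclei (439, 745 and 904 CPM) and oligodendrocytes (548, 688 and 829 CPM), whose difference did not pass (log2 difference 0.04, permutation adjusted p = 0.665). With TMM factors it turned to -0.48 and passed (permutation adjusted p = 0.00427). Interneurons had 44.1 ± 4.11 CPM and excitatory neurons 55.6 ± 5.39 CPM of Slc12a2. Per kb of span, Slc12a2 led the 27 genes in oligodendrocytes at 10.0 CPM and Slc12a5 stood at 3.76 CPM in excitatory neurons.

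Within interneurons, the Lamp5 subclass held the highest levels of GABA synthesis genes. Subclasses were compared for the 22 genes with a mean of at least 1 CPM, and 14 of them passed in the test of the highest subclass against the next (exact sign-flip permutation, Benjamini-Hochberg over all genes), where 23.5% of all 15031 genes passed. Of the 14, 12 passed in every setting that gave a value, 7 of them in all settings, while the other 5 are pairs with the Vip subclass, which could not be tested at a Leiden resolution of 0.6. The Lamp5 subclass led for 7 of the called genes, the Vip subclass for 3, and the Sst and Pvalb subclasses for 2 each. How often each subclass led over all genes that passed is not given, so this tally describes the list alone.

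Gad2 in the Lamp5 subclass was at 693, 787 and 974 CPM and in the Sst subclass, the next, at 240.05, 277 and 305 CPM, with a wide gap between them (log2 difference 1.54, permutation adjusted p = 0.00740). Gad1 was at 475, 555 and 615 CPM in the Lamp5 subclass and 303, 338 and 378 CPM in the Pvalb subclass (log2 difference 0.68, permutation adjusted p = 0.00740), and the Sst subclass had the least at 159.7 ± 20.5 CPM. Slc32a1 showed no such order, with means of 51.8 CPM in the Pvalb, 48.2 CPM in the Sst, 43.3 CPM in the Vip and 44.5 CPM in the Lamp5 subclass (permutation adjusted p = 0.232 for Pvalb against Sst). Gabra5 was at 101, 115 and 173 CPM in the Lamp5 subclass and at 16.8, 20.6 and 28.1 CPM in the Pvalb subclass, the largest log2 difference among the tested genes at 2.45 (permutation adjusted p = 0.00740). The Lamp5 subclass also led for Gabbr2 (1485 CPM, log2 difference 0.73) and Gabrb2 (938 CPM, log2 difference 0.62), both at a permutation adjusted p of 0.00740. Its lead for Slc6a11 (52.4 CPM against 34.2 CPM in the Vip subclass, permutation adjusted p = 0.0289) was lost without any 1 of 7 mice. That for Gabrg3 (3479 CPM against 2965 CPM in the Pvalb subclass, log2 difference 0.22, permutation adjusted p = 0.0432) was lost without any 1 of 9 mice and turned to -0.28 at a Leiden resolution of 0.6. Gabra4, whose lead in the Lamp5 subclass did not pass (0.15, permutation adjusted p = 0.0659), turned to -0.32 there and passed (permutation adjusted p = 0.00603). At that resolution the Vip and Lamp5 clusters merged, so both values set the merged nuclei against the Pvalb subclass. At a resolution of 1.0 the Vip subclass averaged 78.0 CPM of Gabra4 and 1369 CPM of Gabrg3.

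The other subclasses led for 7 genes. Gabrd was at 56.7, 76.7 and 109 CPM in the Pvalb subclass and 37.1, 49.6 and 61.6 CPM in the Lamp5 subclass (log2 difference 0.63, permutation adjusted p = 0.00740), and only at 4.999 ± 2.31 CPM in the Vip subclass. Abat was highest in the Pvalb subclass too, at 250.4 ± 26.2 CPM against 203 ± 28.6 CPM in the Vip subclass (permutation adjusted p = 0.0209). The Sst subclass led for Gabrg1, at 16.3, 20.9 and 30.6 CPM against 1.21, 6.61 and 13.0 CPM in the Vip subclass (log2 difference 1.83, permutation adjusted p = 0.00740), and for Gabra3 at 111 CPM (log2 difference 0.28). The Vip subclass led for Gabra2 (256 CPM, log2 difference 0.45), Gabrb1 (908 CPM, 0.29) and Gphn (799 CPM, 0.36), each at a permutation adjusted p of 0.00740. Gabra2 was lowest in the Pvalb subclass at 68.5 ± 20.7 CPM.

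**Figure D3:**
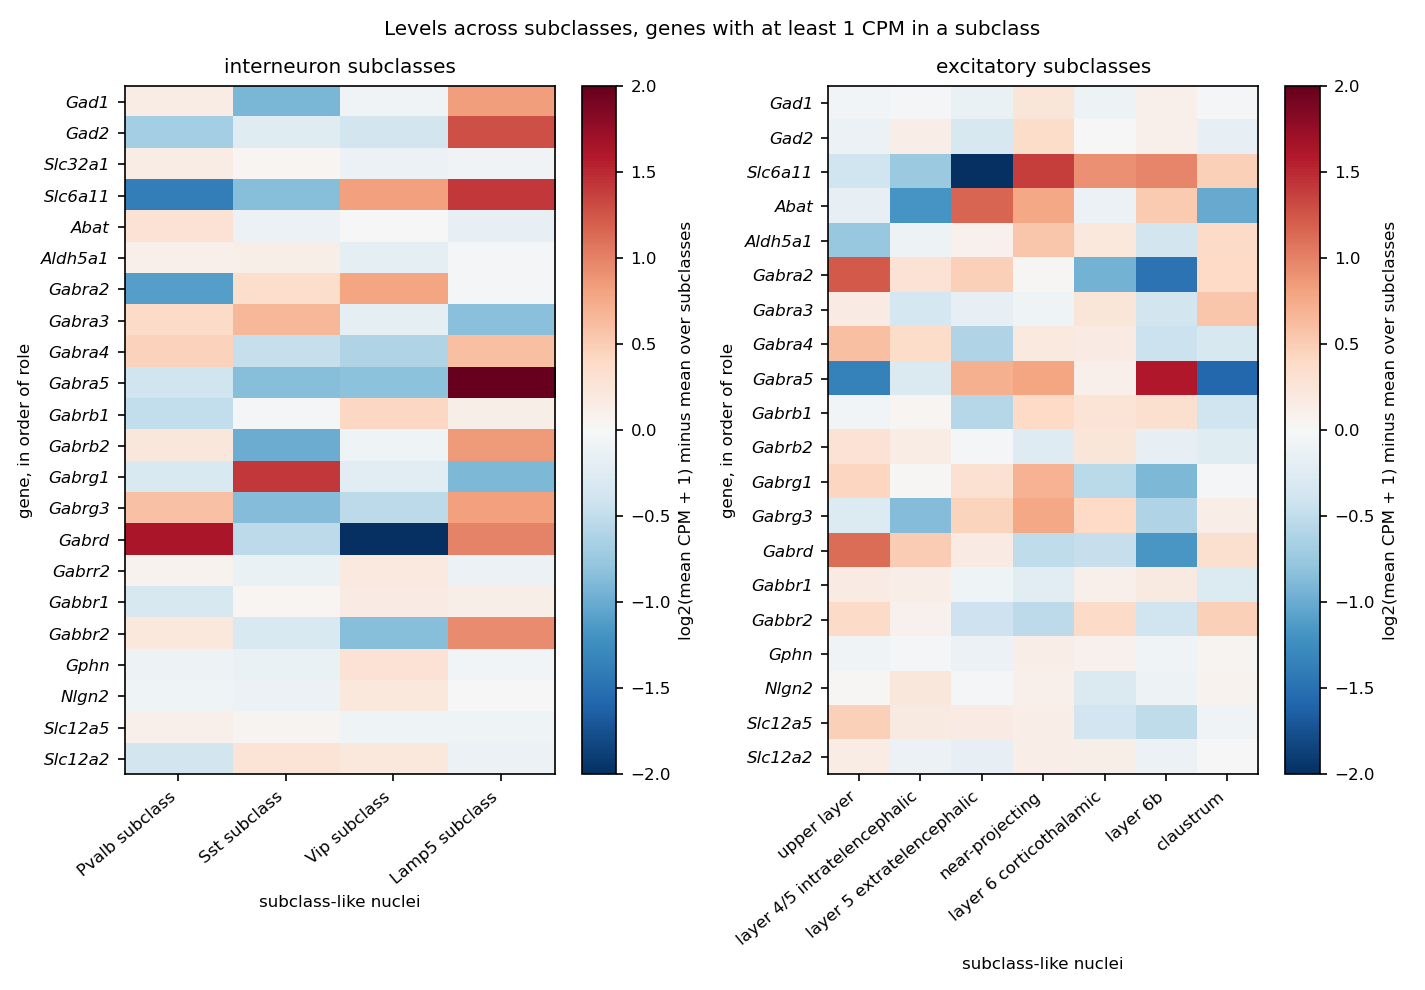
Log2(mean CPM + 1) of each gene in a subclass minus its mean over the subclasses, for 4 interneuron subclasses (left) and 7 excitatory subclasses (right), with genes in order of role and colours that saturate at a difference of 2 on either side. Red cells show Gabra5 and Gad2 in the Lamp5 subclass, Gabrg1 in the Sst subclass and Gabrd in the Pvalb subclass, and on the right Gabra2 and Gabrd in upper layers and Gabra5 in layer 6b.

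Of the 20 genes tested over 7 excitatory subclasses, 7 passed, among them 5 receptor subunits, where 19.8% of all 15232 genes passed, and 5 of the 7 passed in every setting. Upper-layer neurons led for Gabra2, at 319, 375 and 452 CPM against 168, 231 and 280.1 CPM in layer 5 extratelencephalic neurons (log2 difference 0.77, permutation adjusted p = 0.00901), and layer 6b had the least at 57.4 ± 17.1 CPM. Gabra5 ran the other way. Layer 6b neurons had it at 129.7, 184 and 206 CPM, above near-projecting neurons at 59.1, 98.2 and 165 CPM (log2 difference of per-mouse values 0.89, permutation adjusted p = 0.00901), while upper-layer neurons had 21.4 ± 2.38 CPM.

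Upper-layer neurons also led for Gabrd at 53.2 ± 7.13 CPM (log2 difference 0.62 to layer 4/5 intratelencephalic neurons), for Slc12a5 at 189 ± 22.2 CPM (0.29) and for Gabra4 at 199.5 ± 25.9 CPM (0.24), each higher in 11 of 11 mice (permutation adjusted p = 0.00901). Claustrum neurons had the highest Gabra3 at 129.7 ± 27.2 CPM (log2 difference 0.30 to layer 6 corticothalamic neurons), a call lost with TMM factors (0.15, permutation adjusted p = 0.234). Abat in layer 5 extratelencephalic neurons, at 85.9 ± 8.74 CPM, passed narrowly (permutation adjusted p = 0.0493) and lost its call without any 1 of 10 mice. Slc6a11 varied by subclass, from 1.23 ± 0.913 CPM in layer 5 extratelencephalic to 34.3 ± 19.8 CPM in near-projecting neurons, and a UMI of it was in 18.7% of near-projecting (median 7837 UMIs per nucleus), 1.97% of layer 5 extratelencephalic (median 15179) and 1.12% of microglial nuclei (median 2027). Its lead in near-projecting over layer 6b neurons did not pass (log2 difference 0.22, permutation adjusted p = 0.724) but did with doublet calls kept (0.64, permutation adjusted p = 0.0429).

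The second question was whether the genotypes changed these levels. In 6 classes, 121 tests of a listed gene that passed the count filter were made per contrast with edgeR's quasi-likelihood test, with calls defined by an absolute log2 fold change over 0.1 and an adjusted p under 0.05 (Benjamini-Hochberg over all genes). None was called in any contrast (0 of 121 each), nor by DESeq2 (0), which gave no adjusted p for 10, 21, 0 and 18 of the 121 tests in the order of the contrasts given next. Over all genes edgeR called 0.0185% of tests for P301S against non-transgenic, 0% for knockout against P301S, 0.19% for active IKKβ against P301S and 0.0673% for all P301S groups against non-transgenic mice, so few genes of any kind passed. At an unadjusted p under 0.05 edgeR had 12, 14, 12 and 8 of the 121 tests (9.92, 11.6, 9.92 and 6.61%), against 4.53%, 9.4%, 5.9% and 5.52% of the tests over all genes, and DESeq2 had 10, 9, 11 and 8. For DESeq2 no share over all genes is given here or below, so its counts cannot be read against one. Tests of a gene in several classes share their mice and are not independent. Values below are the 3 lowest p of each contrast and describe the largest deviations rather than changes, since no adjusted p was under 0.25.

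For P301S against non-transgenic mice, Slc12a2 in astrocytes had the lowest p. Non-transgenic mice had 33.4, 36.3, 32.9 and 35.8 CPM and P301S mice 48.5, 53.5 and 45.9 CPM, without overlap (log2 fold change 0.46 ± 0.11 SE, edgeR adjusted p = 0.790). The knockout mice at 48.4 and 44.3 CPM and the active IKKβ mice at 41.3 and 39.3 CPM were above all non-transgenic mice too, and over all P301S groups the log2 fold change was 0.35 ± 0.10 (edgeR adjusted p = 0.838). With doublet calls kept the 2 log2 fold changes were 0.29 and 0.19. Slc12a2 is higher in oligodendrocytes, at a mean of 682 CPM, and the summed oligodendrocyte markers (7 genes, none at 0 in all mice) in astrocytes were at 107 to 189.8 CPM in non-transgenic, 144 to 195 CPM in P301S, 197 to 199.98 CPM in knockout P301S and 122 to 174 CPM in active IKKβ P301S mice. Their part in the value was not tested. Gabra2 in oligodendrocytes was at 84.1, 93.5, 123 and 126 CPM in non-transgenic and 72.1, 71.1 and 86.6 CPM in P301S mice, so 1 P301S mouse reached into the non-transgenic range (log2 fold change -0.49 ± 0.14, edgeR adjusted p = 0.948). Without the filter on low counts the same difference was called (-0.49, edgeR adjusted p = 0.00693), in a fit that called 0.29% of the tests over all genes for this contrast, and with doublet calls kept it was -0.30 (edgeR adjusted p = 0.966). In the same nuclei the summed excitatory markers were at 284, 340.3, 396 and 386 CPM in non-transgenic and 350.2, 288 and 236 CPM in P301S mice, and the astrocyte markers at 321 to 415 and 317 to 339.8 CPM. Gabra2 averaged 225 CPM in excitatory neurons and 388 CPM in astrocytes against 90.7 CPM in oligodendrocytes, and the part of RNA from those cells was not tested. Gad2 in interneurons was at 322, 314, 282 and 309.97 CPM and 378, 325 and 399 CPM, all P301S mice above all non-transgenic mice (0.22 ± 0.08 on the log2 scale, edgeR adjusted p = 0.999). Knockout P301S mice had 329 and 355 CPM and active IKKβ P301S mice 326 and 309.4 CPM. The mouse at 309.4 CPM lay inside the non-transgenic range. Gad1 in the same nuclei gave 0.03 and Slc32a1 -0.05, neither past the test. Gad2 averaged 807 CPM in the Lamp5 subclass and 204 to 276 CPM in the other subclasses. Lamp5 nuclei were 116 of 715, 132 of 820, 99 of 754 and 82 of 506 interneurons in non-transgenic mice. P301S mice had 141 of 751, 109 of 619 and 141 of 633. Knockout P301S mice had 97 of 581 and 88 of 477, and active IKKβ P301S mice 89 of 596 and 104 of 597. The part of this mix in the Gad2 value was not tested.

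**Figure D4:**
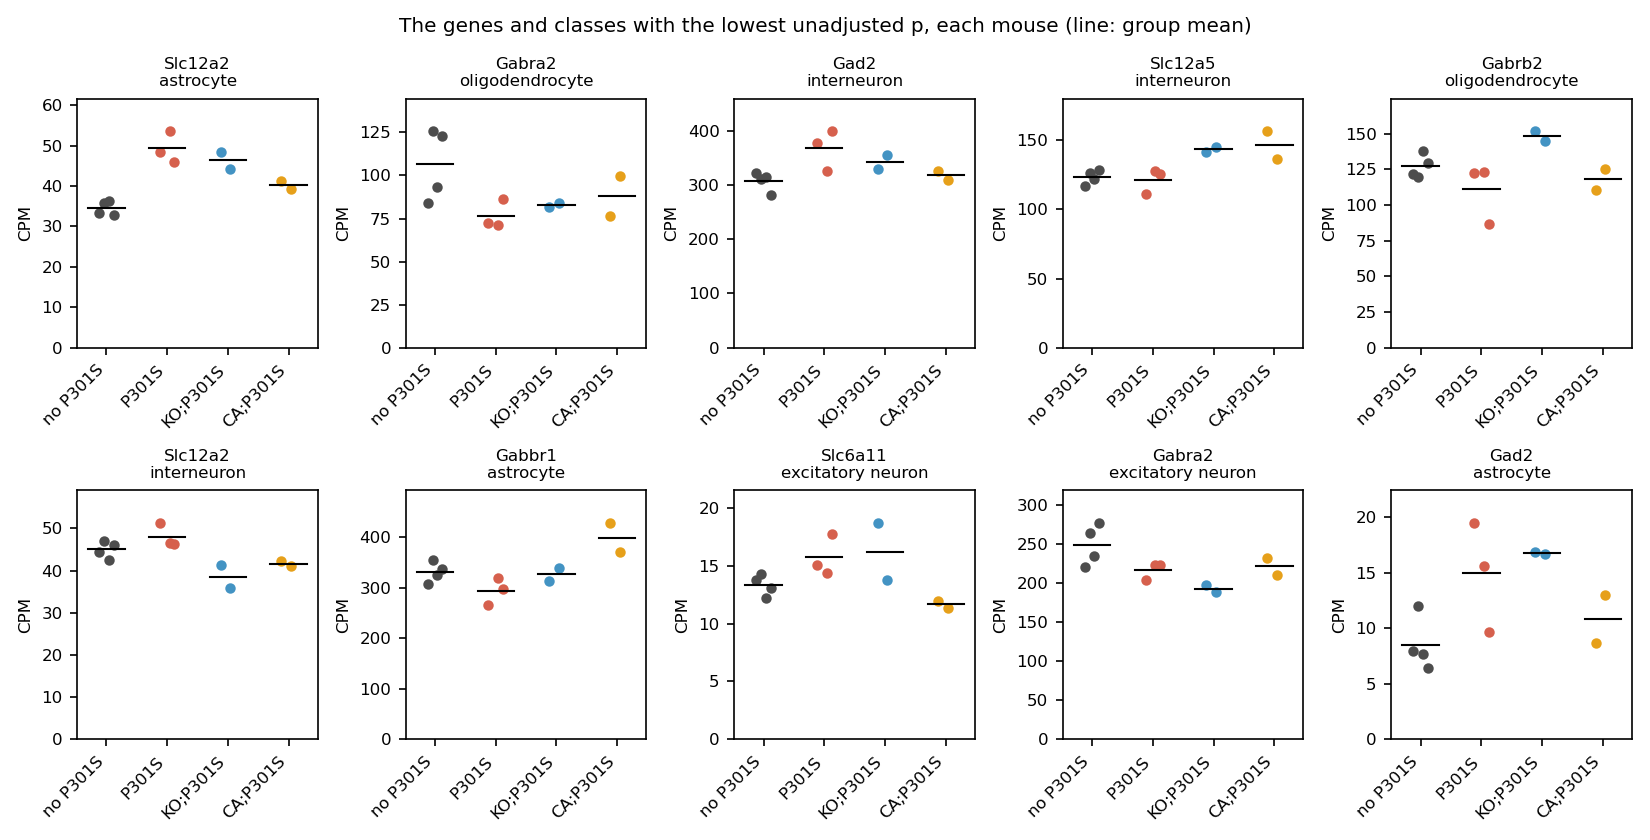
CPM in each mouse (points) and group means (lines) for the 10 pairs of gene and class with the lowest p in a contrast, by genotype: non-transgenic (no P301S, n = 4), P301S (n = 3), knockout P301S (KO;P301S, n = 2) and active IKKβ P301S (CA;P301S, n = 2), with axes from 0. The contrasted groups overlap for Gabra2 in oligodendrocytes and in excitatory neurons and for Gad2 in astrocytes, and do not overlap in the other panels.

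All 3 P301S groups together were set against non-transgenic mice because they share the tau transgene. The lowest p was that of Gabra2 in excitatory neurons, at 221, 235, 277 and 265 CPM in non-transgenic mice, 204, 224 and 224 CPM in P301S, 197 and 188 CPM in knockout P301S and 232 and 211 CPM in active IKKβ P301S mice. The ranges overlapped, and the log2 fold change was -0.29 ± 0.07 (edgeR adjusted p = 0.958). The non-transgenic mice of the floxed line, listed first, were lower than those of the active line. With line as a covariate the value was -0.28. Gabra2 had a log2 fold change below 0 in all 6 classes, from -0.47 in microglia to -0.09 in oligodendrocyte precursors, and in all 11 neuronal subclasses, from -0.75 in near-projecting to -0.06 in claustrum neurons. These classes come from the same mice and the same libraries. Without the filter on low counts Gabra2 in oligodendrocytes was called for this contrast (-0.38, edgeR adjusted p = 0.0222), where 0.359% of the tests over all genes were called. Gad2 in astrocytes, where its level is low, was at 7.99, 7.67, 6.43 and 12.1 CPM in non-transgenic mice and between 8.68 and 19.5 CPM in the 7 mice with tau (log2 fold change 0.66 ± 0.24, edgeR adjusted p = 0.944), while Gad1 in the same nuclei had a log2 fold change of -0.44. With age as a covariate or with doublet calls kept the value for Gad2 was 0.37 and 0.36. The summed interneuron markers in the same nuclei, over 8 genes with none at 0 in all mice, were at 804, 713, 689 and 706 CPM in non-transgenic mice, 906, 1170 and 716 CPM in P301S, 835 and 1029.5 CPM in knockout P301S and 386 and 1473 CPM in active IKKβ P301S mice, and their part in the value was not tested.

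Knockout of Ikbkb in microglia was compared with P301S mice with intact Ikbkb. Slc12a5 in interneurons was at 111, 128 and 126 CPM in P301S and 141 and 146 CPM in knockout P301S mice (log2 fold change 0.27 ± 0.09, edgeR adjusted p = 0.423). Active IKKβ P301S mice, set against the same P301S mice, also had more, at 157 and 136 CPM (0.26 ± 0.09, edgeR adjusted p = 0.546). Non-transgenic mice had 117, 122, 128 and 127 CPM, so all knockout and active IKKβ mice lay above all Ikbkb+/+ mice. The knockout and active IKKβ mice are also those with Cre and 1 Cx3cr1 allele replaced, and the part of this was not tested. Without active IKKβ replicate 1, the higher of the pair, the log2 fold change for active IKKβ was 0.16. In interneurons the summed excitatory markers were at 390.2 to 446 CPM in P301S, 453 to 488 CPM in knockout P301S and 405 to 455 CPM in active IKKβ P301S mice, beside a Slc12a5 level of 146 CPM in excitatory neurons and 131 CPM in interneurons, and their part was not tested. Slc12a2 in interneurons was lower in knockout mice (41.2 and 35.8 CPM against 51.3, 46.6 and 46.3 CPM, log2 fold change -0.29 ± 0.11, edgeR adjusted p = 0.452). Without knockout replicate 2, the lower mouse, this was -0.18. Gabrb2 in oligodendrocytes was at 152 and 145 CPM against 123, 123 and 87.0 CPM (log2 fold change 0.42 ± 0.14, edgeR adjusted p = 0.310). Without P301S replicate 3, the lowest mouse, the value was 0.26, with doublet calls kept 0.27 and with age as a covariate 0.22.

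In this contrast the listed genes had a median above 0 in microglia and oligodendrocytes. The median log2 fold change was 0.32 over 16 genes in microglia and 0.28 over 22 genes in oligodendrocytes, against -0.01 and 0.00 over all genes of those classes, and it was 0.15 in astrocytes, 0.08 in oligodendrocyte precursors, 0.04 in excitatory neurons and -0.05 in interneurons. For P301S against non-transgenic mice, a contrast that shares the P301S mice, the medians were -0.22 in microglia and -0.04 in oligodendrocytes. Markers of excitatory neurons and of astrocytes moved with the knockout contrast. The sum of the excitatory markers, over 8 genes, none at 0 in all mice, was 501 to 515 CPM in microglia of knockout mice and 334 to 445 CPM in those of P301S mice, and 379.9 to 417 against 236 to 350.2 CPM in oligodendrocytes. Astrocyte markers, also 8 genes with none at 0, summed to 539 to 559 CPM in knockout against 382 to 502 CPM in P301S mice in microglia and to 373 to 424 against 317 to 339.8 CPM in oligodendrocytes. In non-transgenic mice the excitatory markers were at 358 to 488 CPM in microglia and 284 to 396 CPM in oligodendrocytes, and the astrocyte markers at 347 to 466 and 321 to 415 CPM. The summed markers of interneurons were at 923 to 965 against 766 to 1019.5 CPM in microglia and at 1961 to 1962 against 1999 to 2269 CPM in oligodendrocytes. The part of RNA from other cells in the values of these classes was not tested. Over the 4 contrasts the fits without the filter on low counts called 6 of 644 tests of listed genes (0.932%) and 0.413% of all tests. For knockout against P301S mice they called Gabbr2 (0.56, edgeR adjusted p = 0.0143) and Gabrg3 (0.41, edgeR adjusted p = 0.0464) in oligodendrocytes and Gabbr2 in astrocytes (0.47, edgeR adjusted p = 0.0451), where 0.469% of the tests over all genes were called. In astrocytes the summed excitatory markers were at 273 and 295 CPM in knockout and 239.7, 205 and 161 CPM in P301S mice, without overlap, and the interneuron markers at 835 and 1029.5 against 906, 1170 and 716 CPM.

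**Figure D5:**
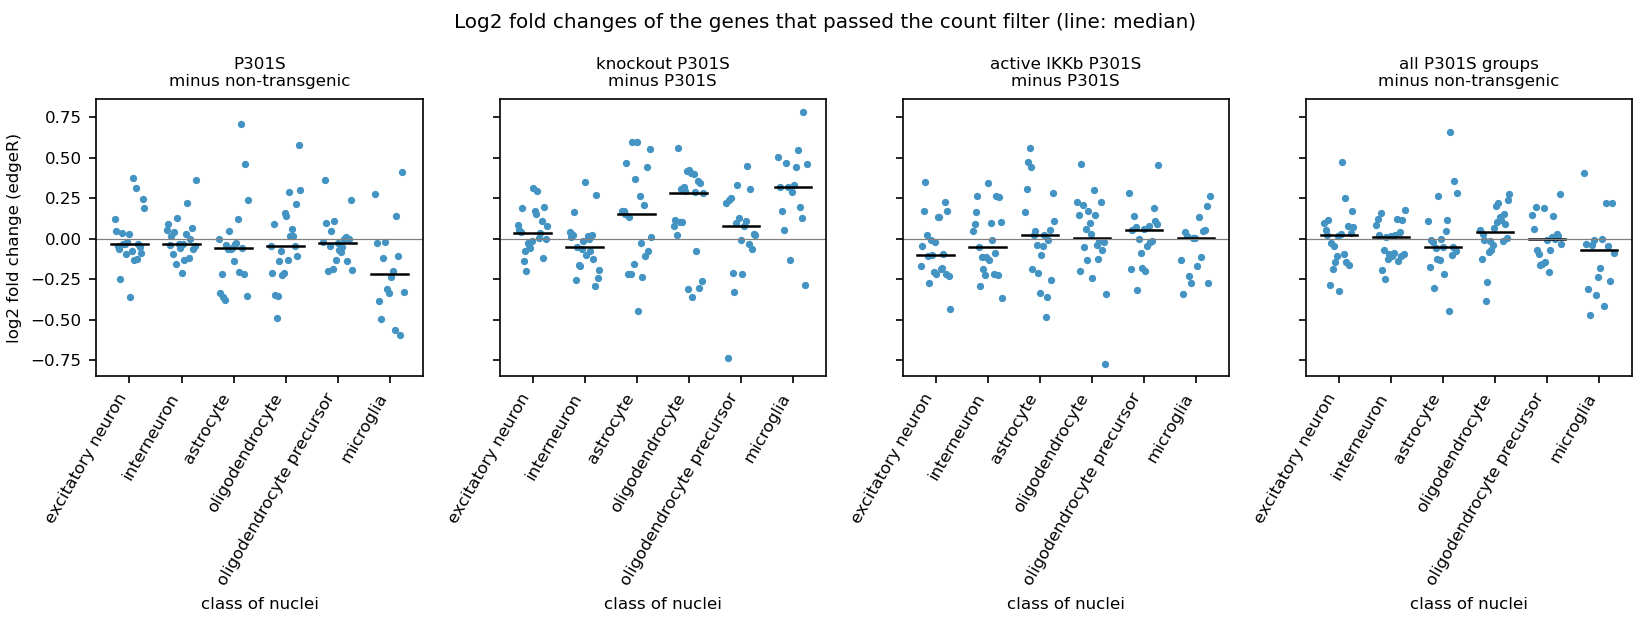
Log2 fold changes (edgeR) of the listed genes that passed the count filter, 1 point per gene, in 6 classes and 4 contrasts, with the median as a line. Medians lie near 0 except for knockout minus P301S in microglia (0.32), oligodendrocytes (0.28) and, to a lesser extent, astrocytes, and for P301S minus non-transgenic in microglia (-0.22).

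Active IKKβ in microglia was compared with the same P301S mice. Gabbr1 in astrocytes was at 267, 319 and 298 CPM in P301S and 429 and 371 CPM in active IKKβ P301S mice, without overlap (log2 fold change 0.47 ± 0.11, edgeR adjusted p = 0.780). Both were also above the non-transgenic mice (307, 325, 338 and 356 CPM). Gabbr2 in astrocytes went the same way (342, 396 and 253 CPM against 371 and 579 CPM) but with overlap (0.56 on the log2 scale, edgeR adjusted p = 0.934). It was called without the filter on low counts (0.57, edgeR adjusted p = 0.00461), where 0.535% of the tests over all genes were called. The active IKKβ mouse at 371 CPM of Gabbr2 had 386 CPM of summed interneuron markers in its astrocytes and 194 CPM of excitatory markers, and the mouse at 579 CPM had 1473 and 234 CPM, so these 2 mice had the lowest and the highest interneuron marker sums of the 11. The part of RNA from other cells in this value was not tested. Slc6a11 in excitatory neurons was lower, at 11.97 and 11.4 CPM against 15.1, 14.4 and 17.8 CPM (log2 fold change -0.43 ± 0.13, edgeR adjusted p = 0.861). The summed astrocyte markers in these nuclei were at 113 to 115 CPM against 95.8 to 126 CPM.

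Layers and interneuron subclasses could differ in share between mice, so the contrasts were repeated in 11 neuronal subclasses. EdgeR called 0 of 215 tests of listed genes in each contrast, with 9, 13, 19 and 19 at an unadjusted p under 0.05 in the order given above (4.19, 6.05, 8.84 and 8.84%). DESeq2 called 0 as well, with 6, 6, 11 and 14, and gave no adjusted p for 0, 0, 3 and 6 of the tests. Over all genes and contrasts edgeR called 0.0131% of tests, and 3.53, 6.44, 5.67 and 5.62% had an unadjusted p under 0.05 in the same order. For all P301S groups against non-transgenic mice 17 of the 19 were lower, beside 53.8% of the tests over all genes at that p (3698 of 6880, or 3.02% of all tests), and 7 of these were Gabra2, in upper-layer, layer 4/5, layer 5, near-projecting, layer 6 corticothalamic, layer 6b and Pvalb neurons. For active IKKβ, Slc6a11 in layer 6 corticothalamic neurons had the lowest p (log2 fold change -0.84, edgeR adjusted p = 0.740), and Gabbr2 was higher at an unadjusted p under 0.05 in 6 subclasses. Without the filter on low counts edgeR called 5 of 1152 subclass tests (0.434%), against 0.264% of the tests over all genes in the same fits. The calls for P301S or all P301S groups against non-transgenic mice were Gabra2 in near-projecting (-0.76 and -0.74), layer 6b (-0.71) and Pvalb (-0.46) neurons. For active IKKβ the call was Slc6a11 in layer 6 corticothalamic neurons (-0.84). Near-projecting neurons made up 0.735 to 4.81% of nuclei in a mouse. They joined clusters of 1247, 918 and 260 nuclei, with 25.5, 12.5 and 28.8% of each from 1 library, and the part of this mix was not tested.

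Excitatory and inhibitory neurons were also compared in their response to tau. For the 17 genes with at least 5 CPM in both, the within-mouse log2 difference between the classes was compared between the 7 mice with tau and the 4 without by an exact permutation test (two-sided, 330 arrangements, smallest p 0.00303). None passed (0 of 17 by adjusted p, 0 also by unadjusted p under 0.05), and the lowest p was 0.336, for Gabra4. Of all 9400 genes 0% passed the adjusted test and 4.68% had an unadjusted p under 0.05. For Gabra2 the log2 difference between mice with and without tau was -0.24 in excitatory neurons and -0.14 in interneurons.

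Other genes of the inhibitory synapse, of GABA-B effectors, chloride control and the glutamine cycle were followed with the same fits, as a list of 46 symbols of which 44 were found. EdgeR called 0 of 232 tests in each contrast, with 12, 21, 17 and 15 at an unadjusted p under 0.05 (5.17, 9.05, 7.33 and 6.47%), and DESeq2 called 0, with 9, 16, 10 and 14 and no adjusted p for 23, 44, 5 and 39 of the tests. These shares lie beside the 4.53, 9.4, 5.9 and 5.52% over all genes. Stk39 encodes a kinase that activates Slc12a2 and inhibits Slc12a5. Without active IKKβ replicate 1, which leaves 1 active IKKβ mouse, its log2 fold change in microglia against P301S mice was 1.97. With all mice the value was 1.22 (edgeR adjusted p = 0.358), and without the filter on low counts it was 1.25 and was called (edgeR adjusted p = 4.6e-06). That fit called 12 of 1028 tests of this list over the 4 contrasts (1.17%), against 0.413% over all genes.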

How the data were processed

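Single-nucleus RNA was measured in 11 libraries, 1 per mouse. The deposited matrices hold raw UMI counts per gene and barcode, which the authors made per the study's methods with Cell Ranger 3.1.0 on mm10 with unspliced transcripts counted, so that long genes gather intronic reads and levels follow gene span. No annotation of nuclei was used, and all per-sample values were mapped to samples by the labels. Groups came from the labels, and replicates were numbered within a group in the order of the samples, because the numbers in the titles start anew in each breeding line. The title numbers were used only for the replicate block.

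Filters of 300 to 8000 genes per nucleus and a mitochondrial share of up to 5% left 112539 of 114118 barcodes, 9474 doublet calls (8.42%) were removed, and 103065 nuclei were clustered on 2055 variable genes, 30 principal components and 20 neighbours (Leiden resolution 1.0, leidenalg 0.10.2, scikit-learn 1.9.0). Classes needed 3 raised markers. Clusters with interneuron markers but no subclass were set apart after they had been seen. Counts were summed per mouse and class with at least 20 nuclei. Levels were compared by an exact sign-flip permutation test over mice (smallest p 0.000977 for 11 mice) on log2(CPM + 1), for classes with 9 mice and genes with a mean of 1 CPM, and genotypes by edgeR 4.0.16 (quasi-likelihood, TMM, filterByExpr), with DESeq2 1.42.0 as an alternative (R 4.3.3). P-values of the level and response tests were planned to be adjusted over the listed genes but were adjusted over all genes tested. The study tested nuclei as units, whereas mice are the units here. The labels name separate mice. The permutation tests and edgeR were checked on simulated data. For edgeR this covered excitatory neurons, interneurons and microglia in the contrast of all P301S groups against non-transgenic mice. DESeq2 and the other contrasts were not checked in this way. The 27 genes and the further lists were chosen with earlier results of these data known. All 27 genes were named, and for each contrast any called gene and the 3 with the lowest p. Intervals and CPM at few UMIs carry counting error, and a gene at 0 is not shown to be absent.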

Additional observations from a re-analysis of the deposited data

Results flagged for a closer look

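In the 4 non-transgenic mice, 7 of the 68 sets of 4 values checked held a mouse far from the other 3, its gap to the nearest of them past Dixon's limit for the range of the set, and chance alone flags about 1 in 20 such sets. Gabra6 in interneuron-marker nuclei without a subclass was at 33.0 CPM in 1 mouse and at 0.359, 1.42 and 2.87 CPM in the others. Slc12a2 in mural nuclei was at 439 CPM in 1 mouse and at 745, 748 and 756 CPM in the others. Gabra5 in the Lamp5 subclass was at 173 CPM against 106, 114 and 115 CPM. Nlgn2 in the Vip subclass was at 63.5 CPM against 41.9, 43.5 and 44.6 CPM. Abat in the Pvalb subclass was at 279.9 CPM against 214, 218 and 225 CPM. Gabrd in upper-layer neurons was at 49.9 CPM against 52.2, 52.4 and 52.5 CPM, a small gap in a narrow range. Gad1 in near-projecting neurons was at 15.9 CPM against 3.66, 4.72 and 5.72 CPM. What set these mice apart was not tested.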

How the results depend on the processing

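The counts of listed genes with a highest class or subclass stayed within 1.5 times of 16, 14 and 7 under every alternative, and leaving out each mouse in turn gave 15 to 17 of 27 genes over classes, 12 to 14 over interneuron subclasses and 6 to 7 over excitatory subclasses. Of the single values, 1323 kept their side of the threshold, of which 35 changed sign with neither value past it, 45 lost a call and 17 gained one. Values with a call in either setting reversed in 6 cases. At a Leiden resolution of 0.6, where the Vip and Lamp5 clusters merged, Gabrg3 and Gabra4 in the Lamp5 minus the Pvalb subclass were -0.28 and -0.32. With TMM factors Gabbr2 in interneurons minus excitatory neurons was -0.11, Slc12a5 in interneuron-marker nuclei without a subclass minus excitatory neurons -0.22 and Slc12a2 in mural nuclei minus oligodendrocytes -0.48. Gabrr1, with 1 UMI in mural nuclei, ran from -0.30 (without active IKKβ replicate 1) to 0.17 in mural minus interneuron-marker nuclei without each mouse in turn. Genotype calls of listed genes stayed at 0 with DESeq2, RLE factors, line or age as a covariate, doublets kept and the listed genes among the variable genes, and were 0 to 0 without each mouse in turn. Without the filter on low counts edgeR called 1 listed gene for P301S against non-transgenic mice, 3 for knockout and 1 for active IKKβ against P301S, 1 for all P301S groups, 5 in neuronal subclasses and 12 on the inhibitory synapse list in the 6 classes (9 more in subclasses), where the tests over all genes were called in 0.29, 0.469, 0.535, 0.359 and 0.264% for the first 5 and 0.413 and 0.264% for the list. The cause was not tested. Among the fits without each mouse in turn, the one without active IKKβ replicate 1 leaves 1 active IKKβ mouse. Stk39 on that list is therefore given from it by effect size alone. The response difference between neuron classes gave 0 to 0 genes. With the title number as a block, 0 listed genes were called in each contrast, as without it. Correlations of deviations from the group means ran from -0.24 to 0.27 between mice of the same title number. In groups of 2 mice these deviations mirror each other, so this check cannot decide whether mice were paired. Sets of mice that share both line and age were not tried as a block. Groups of 2 mice limit the knockout and active IKKβ contrasts, and genes under 1 CPM could not be ranked between subclasses at this depth.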
